A study of Homo sapiens with 4 samples.

Results

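The transcripts of 10 kinases of pre-mRNA splicing were followed in RNA recovered with the m6A demethylase ALKBH5: CLK1, CLK2, CLK3, CLK4, SRPK1, SRPK2, DYRK1A, PRPF4B, CDK12 and CDK13. They were picked by gene symbol as kinases of one process, with earlier results of these data known, and all 10 were found among the 26830 gene symbols of the deposited expression table. The cells were NOMO-1, a human acute myeloid leukaemia line with monocytic features, in which a lentivirus drove 3xFlag-tagged ALKBH5; both groups carried this overexpression. RNA immunoprecipitation sequencing (RIP-seq) gave 2 Flag-IP libraries, from RNA pulled down with an anti-Flag antibody after UV crosslinking, and 2 input libraries of RNA that did not go through the pull-down, numbered 1 and 3 in each group. Puromycin selection and sorting for GFP preceded the crosslinking. Values are TPM, relative transcript levels corrected for transcript length, which carry no information on read depth, so counting error could not be given. A Flag-IP from untagged cells is not analysed here. The labels do not name separate cultures for the libraries of one group, and p-values reflect only the scatter among these libraries, which may be technical.

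SR proteins are splicing factors whose arginine-serine tails must be phosphorylated and dephosphorylated for each round of splicing. SRPK kinases act largely in the cytoplasm and license SR proteins for nuclear import, while CLK kinases act in the nucleus and release them from nuclear speckles. The CLKs also regulate their own expression: part of the CLK1 and CLK4 RNA of a cell stays in the nucleus as polyadenylated transcripts with unspliced introns. Gene-level TPM does not separate such transcripts from spliced mRNA. ALKBH5 itself is a nuclear enzyme that demethylates m6A (N6-methyladenosine), an RNA mark placed preferentially in short motifs such as GGACT, here in DNA letters.

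The CLKs are named LAMMER kinases after a motif of their catalytic domain. The stretch shown is 24 bases long and lies in exon 11 of each transcript used. It holds the codons of that motif and the 2 codons before them. It is shown as a conserved stretch of the family, and its differences do not measure how far the whole mRNAs differ. In CLK3 it codes for a variant of the motif, LVMMEK in place of LAMMER. Sequences are from GENCODE 29 transcripts (GRCh38), and capitals mark bases that differ from CLK1.
CLK1: gagcatttagcaatgatggaaagg
CLK2: gagcatCtagcCatgatggaaagg
CLK3: gagcaCCtGgTGatgatggaGaAg
CLK4: gagcaCCtGgcaatgatggaaCgA
They lie at chr2:200854657-200854680 (minus strand), chr1:155264262-155264285 (minus), chr15:74628619-74628642 (plus) and chr5:178605344-178605367 (minus). CLK2 differed from CLK1 at 2 of the bases, CLK4 at 5 and CLK3 at 7. Over the whole transcript with the longest coding sequence, no 50-base word of CLK1, CLK4, SRPK1, DYRK1A, CDK12 or CDK13 occurred in an annotated transcript of another gene. The share of such words was 6.09% for CLK2, all in the pseudogene CLK2P1, 3.18% for PRPF4B, 2.33% for CLK3 and 2.08% for SRPK2. CLK2P1 itself had 0.07 and 0.09 TPM in Flag-IP 1 and 3 and was listed at 0 in both inputs. The read length is not given in the sources used here, so these shares describe the transcripts and not the reads.

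The make-up of the libraries differed between the groups, and each kinase is given beside that. Structural RNAs such as ribosomal RNA and 7SL took 92.5% and 93.6% of TPM in Flag-IP 1 and 3, against 96.8% and 96.3% in input 1 and 3, which left a larger share of TPM for mRNAs in Flag-IP. With limma on log2(TPM + 1) the median of 6487 tested genes, whose mean reached 1 TPM, was 0.84 higher in Flag-IP as deposited. Differences are therefore given as deposited and on a median-ratio scale, in which each library is divided by its median ratio over the tested genes, so that the typical gene lies at -0.01. Of the myeloid markers 6 of 12 reached a mean of 1 TPM: CD33, CD68, CTSG, ELANE, SPI1 and CEBPA. LYZ, ITGAM, FCGR1A, MPO and CSF1R had means of 0.945, 0.343, 0.223, 0.0625 and 0.02 TPM, and CD14 was listed at 0 in all libraries. The list summed to 108.0 and 98.7 TPM in Flag-IP and 59.1 and 71.0 TPM in input. On the median-ratio scale CD68, CTSG, ELANE, SPI1 and CEBPA passed limma as lower, as did 18.6% of tested genes, and CD33 did not pass. Of 12 markers of other cell types, 7 were listed at 0 throughout, and NKG7 and PECAM1 alone reached a mean of 1 TPM; the summed level of the list was 24.5 and 26.2 TPM in Flag-IP and 12.6 and 15.6 TPM in input, and its part in the results was not tested. The transcript of the tagged protein, ALKBH5, had 10.09 and 8.91 TPM in Flag-IP and 4.62 and 4.91 TPM in input, a log2 difference of -0.24 ± 0.11 on the median-ratio scale (± SE, limma, Benjamini-Hochberg adjusted p = 0.124).

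As deposited, all 10 kinases passed limma as higher (adjusted p below 0.05), as did 86.6% of all tested genes, while 0.74% passed as lower. The groups did not overlap for any of the 10, with Flag-IP above, as for 93.1% of tested genes; 1.09% had Flag-IP wholly below. On the median-ratio scale 7 of the 10 kinases were higher, CLK1, CLK3, CLK4, PRPF4B, CLK2, CDK12 and DYRK1A in order of the difference, and none was lower; SRPK1, SRPK2 and CDK13 did not pass. Among all tested genes 22.3% passed as higher and 18.6% as lower on that scale. For 8 of the 10 kinases Flag-IP lay wholly above input on that scale, as for 37.0% of tested genes. The median difference of the 10 kinases was 0.47, against -0.01 for all tested genes. CLK1 and CLK4 had input means below 1 TPM and entered the test through their Flag-IP values, so they had to differ; of the 8 kinases with an input mean of at least 1 TPM, 5 were higher on the median-ratio scale, where 13.2% of 4284 such genes were; as deposited 8 of 8 and 81.7% were.

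**Figure D1:**
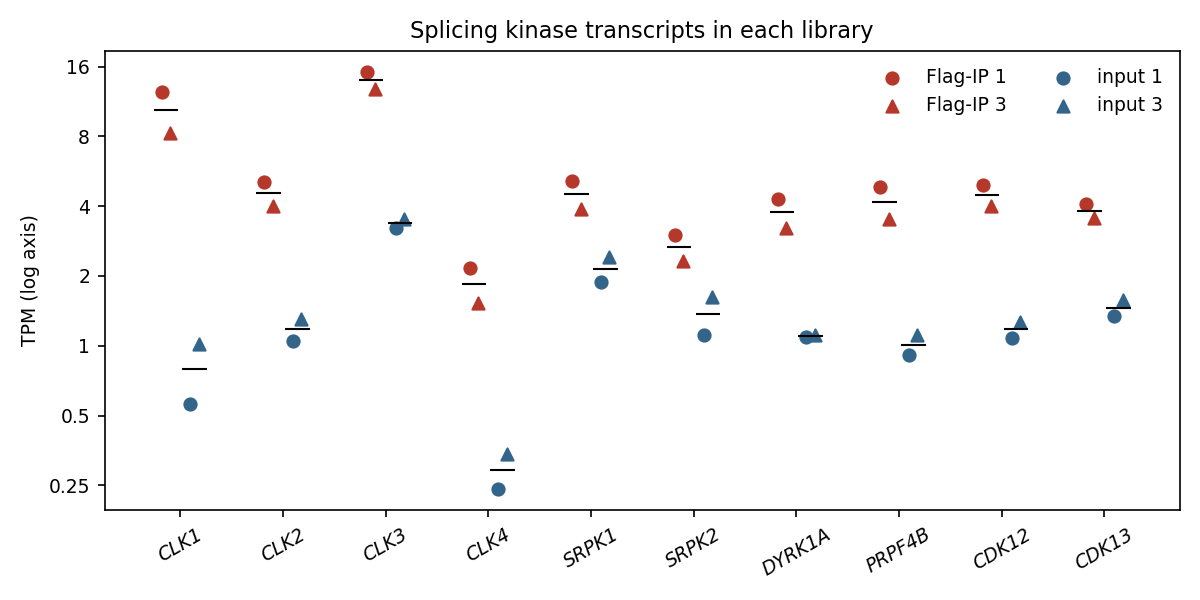
TPM (log axis) of each kinase in the 4 libraries, Flag-IP 1 and 3 in red and input 1 and 3 in blue, with a bar at the mean of each group. For every kinase the red points lie above the blue ones, with the widest gap for CLK1 (12.46 and 8.31 TPM against 0.56 and 1.02 TPM).

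CLK1 had the largest ratio of the 10 kinases. The transcript of this SR protein kinase (chromosome 2, 200853009 to 200864744, minus strand) had 12.46 and 8.31 TPM in Flag-IP 1 and 3, against 0.56 and 1.02 TPM in input 1 and 3, a ratio of the means of 13.1. Both Flag-IP libraries were several times above either input, and the 2 inputs differed from each other by more than the Flag-IP libraries did in relative terms. CLK1 ranked 2 of 10 kinases by TPM in each Flag-IP library, below CLK3 alone, and 9 of 10 in each input. Its log2 difference was 2.66 ± 0.21 as deposited (limma adjusted p = 1.34e-33). After median-ratio scaling it was 1.79 ± 0.16 (limma adjusted p = 0.00106). Because CLK1 was tested only through its Flag-IP values, these p-values describe it and are no independent support. Without one library at a time the median-ratio value stayed between 1.62 and 2.02.

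CLK4, a further nuclear SR protein kinase of the family, was the least abundant of the 10 in every library. The gene (chromosome 5, 178602664 to 178630615, minus strand) had 2.17 and 1.53 TPM in Flag-IP and 0.24 and 0.34 TPM in input, a ratio of 6.38. Because 1 is added to each TPM before the logarithm, the log2 difference of so low a gene is understated: it was 1.14 ± 0.18 as deposited and 0.59 ± 0.10 on the median-ratio scale (limma adjusted p = 0.00651), or 1.23 after the same scaling with 0.1 in place of 1. The groups did not overlap on either scale, and CLK4 too was tested only through its Flag-IP values. With quantile scaling CLK4 did not pass (0.33, limma adjusted p = 0.0509), and without either Flag-IP library its mean fell under 1 TPM and it was not tested.

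CLK3, another nuclear SR protein kinase, was the most abundant of the 10 in every library. The gene (chromosome 15, 74598500 to 74645414, plus strand) had 15.23 and 12.85 TPM in Flag-IP, against 3.21 and 3.52 TPM in input. The replicates of each group lay close together and the groups were far apart, with a ratio of 4.17. The log2 difference was 1.78 ± 0.21 as deposited and 0.69 ± 0.10 on the median-ratio scale (limma adjusted p = 0.00406). CLK3 overlaps EDC3, an mRNA decapping factor on the opposite strand, over 14857 bases; EDC3 had 2.35 and 2.45 TPM in Flag-IP and 0.87 TPM in both inputs. The library kit keeps strand, but whether the quantification used it is not given in the sources used here.

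CLK2 (chromosome 1, 155262868 to 155278491, minus strand), the remaining member of the family, had 5.07 and 4.0 TPM in Flag-IP and 1.05 and 1.30 TPM in input. Its ratio of 3.86 was above the median ratio of all tested genes, 2.38. The log2 difference was 1.34 ± 0.21 as deposited and 0.47 ± 0.10 on the median-ratio scale (limma adjusted p = 0.0128). The call was lost by a small margin without Flag-IP 1 (0.47, limma adjusted p = 0.0515) and without input 1 (0.45, adjusted p = 0.0568).

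Within the CLK family the balance of transcripts differed between the groups, a measure that does not depend on how libraries are scaled. The 4 CLKs together had 34.9 and 26.7 TPM in Flag-IP and 5.06 and 6.18 TPM in input. CLK1 made up 35.7% and 31.1% of that sum in Flag-IP, against 11.1% and 16.5% in input. CLK3 made up 43.6% and 48.1% in Flag-IP and 63.4% and 57.0% in input, and CLK2 14.5% and 15% in Flag-IP and 20.8% and 21.0% in input. The groups did not overlap for any of these shares. Shares within a library add up to a whole, so a larger CLK1 share leaves less for the others. How often such shares separate the groups in other gene families was not computed. The share of CLK4 was small in all libraries, 6.21% and 5.73% in Flag-IP and 4.74% and 5.50% in input.

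**Figure D2:**
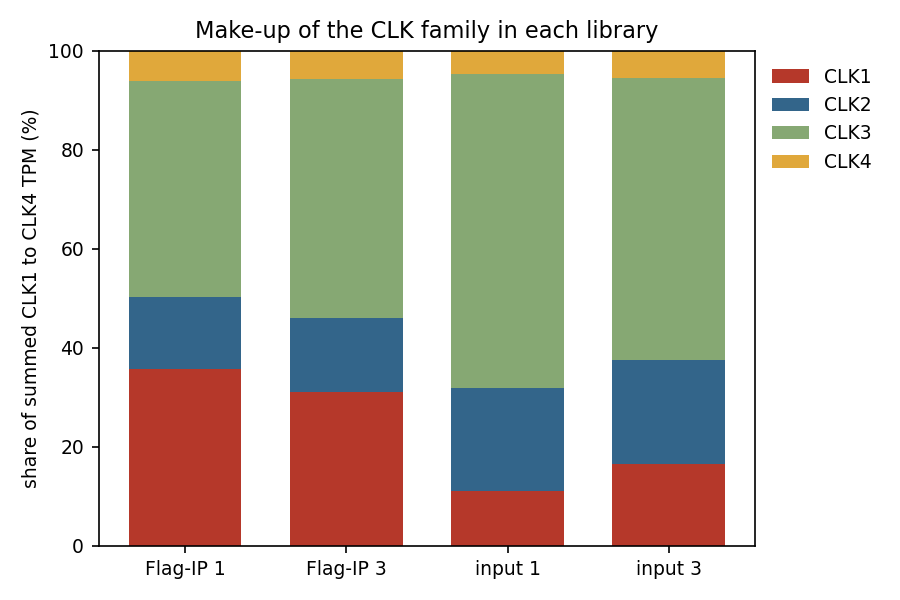
Share (%) of the summed TPM of CLK1 to CLK4 taken by each gene, with Flag-IP 1 and 3 on the left and input 1 and 3 on the right. The CLK1 part is larger in both Flag-IP libraries (35.7% and 31.1%) than in both inputs (11.1% and 16.5%), and the CLK3 and CLK2 parts are smaller.

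Ratios between pairs of kinases in the same library also need no scaling. These ratios and the CLK shares re-express TPM values already given and are no independent support for the differences. CLK1 and CLK4 entered the test only through their Flag-IP values. CLK1 had 2.46 and 2.08 times the TPM of CLK2 in Flag-IP, but 0.533 and 0.785 times in input, a difference of 1.80 in the mean log2 ratio (pooled SD between libraries of a group 0.30). Relative to CLK3 it had 0.818 and 0.647 times the TPM in Flag-IP and 0.174 and 0.290 times in input (difference 1.69, SD 0.40). Relative to CLK4 it had 5.74 and 5.43 times the TPM in Flag-IP and 2.33 and 3.00 times in input (difference 1.08, SD 0.19). CLK1 thus ranked higher against each of the other CLKs in both Flag-IP libraries than in either input. CLK4 against CLK2 was at 0.428 and 0.383 in Flag-IP and 0.229 and 0.262 in input (difference 0.73, SD 0.13), while CLK2 against CLK3, at 0.333 and 0.311 in Flag-IP and 0.327 and 0.369 in input, overlapped between the groups. An exact permutation test of 2 against 2 libraries cannot give a two-sided p below 0.333, so none is given for the 8 ratios computed. CLK4 had the lowest values, and the difference of CLK4 against CLK2 turned to -0.21 when 1 TPM was added to both genes.

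**Figure D3:**
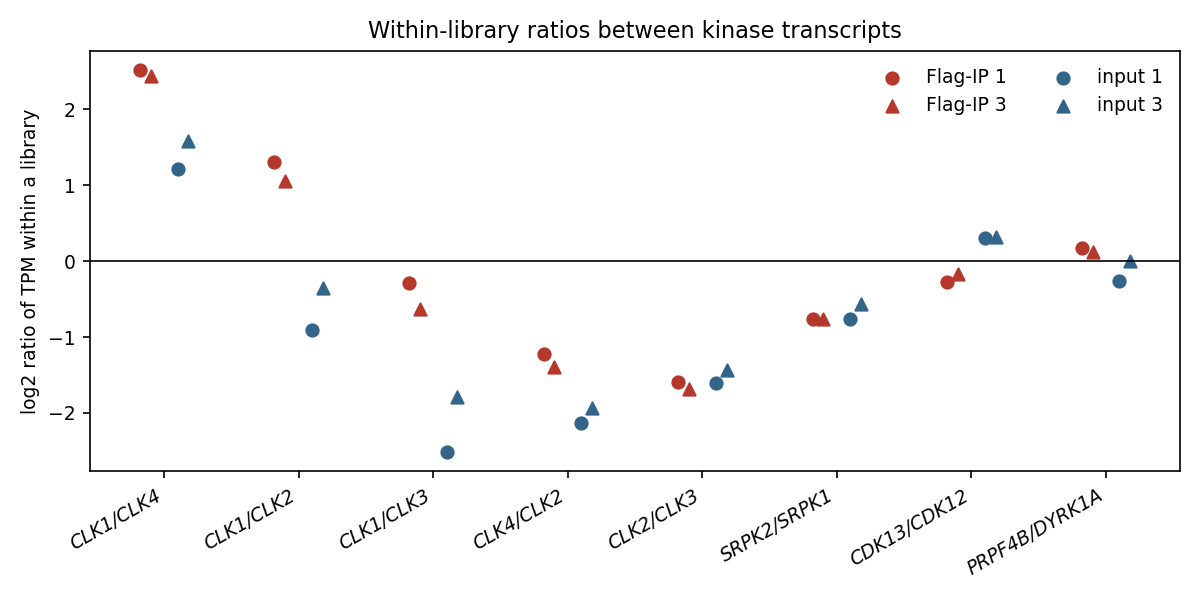
Log2 ratio of the TPM of kinase pairs within each library, Flag-IP in red and input in blue (circles library 1, triangles library 3). The 3 ratios with CLK1 on top, CLK4/CLK2 and PRPF4B/DYRK1A have both red points above both blue ones. CDK13/CDK12 has them below, and CLK2/CLK3 and SRPK2/SRPK1 overlap. How often ratios of other gene pairs separate the groups was not computed. Of single tested genes on the median-ratio scale, 37.0% had Flag-IP wholly above input and 37.1% wholly below.

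The SRPK pair, the cytoplasmic counterpart of the CLKs, had smaller ratios than the other 8 kinases. SRPK1 (chromosome 6, 35832966 to 35921342, minus strand) had 5.12 and 3.90 TPM in Flag-IP and 1.88 and 2.41 TPM in input, a ratio of 2.10. SRPK2 (chromosome 7, 105110704 to 105399308, minus strand) had 3.02 and 2.31 TPM in Flag-IP and 1.11 and 1.63 TPM in input, a ratio of 1.95. Both ratios were below the 2.38 of the median tested gene. As deposited their log2 differences were 0.81 ± 0.21 and 0.63 ± 0.21 (limma adjusted p = 2.54e-04 and 0.00303); after median-ratio scaling they were -0.15 ± 0.10 and -0.19 ± 0.12 (limma adjusted p = 0.295 and 0.235). After scaling, both Flag-IP libraries lay below both inputs for these 2 kinases, as for 37.1% of tested genes. SRPK2 overlaps KMT2E, a chromatin regulator gene on the other strand with 5.62 and 4.0 TPM in Flag-IP and 1.19 and 1.24 TPM in input. The ratio of the pair overlapped between the groups: SRPK2 had 0.590 and 0.592 times the TPM of SRPK1 in Flag-IP and 0.590 and 0.676 times in input. SRPK1 ranked 3 and 5 of 10 kinases by TPM in Flag-IP 1 and 3, and 2 of 10 in each input.

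PRPF4B, a kinase of the spliceosome that acts when the tri-snRNP joins, and DYRK1A, a dual-specificity kinase that phosphorylates splicing factors among other substrates, had almost the same level in input. PRPF4B (chromosome 6, 4021267 to 4064983, plus strand) had 4.84 and 3.51 TPM in Flag-IP and 0.91 and 1.11 TPM in input. DYRK1A (chromosome 21, 37365573 to 37526358, plus strand) had 4.31 and 3.23 TPM in Flag-IP and 1.09 and 1.11 TPM in input. Neither kinase overlapped between the groups. On the median-ratio scale PRPF4B was higher by 0.52 ± 0.10 (limma adjusted p = 0.0112; 0.0516 without Flag-IP 1), and DYRK1A by 0.33 ± 0.11, just inside the threshold (limma adjusted p = 0.0485). The DYRK1A call was lost without any 1 of the 4 libraries (limma adjusted p from 0.0799 to 0.192). As deposited the differences were 1.35 ± 0.21 and 1.17 ± 0.21.

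CDK12 and CDK13, which pair with cyclin K and phosphorylate the tail of RNA polymerase II during elongation, changed places. CDK12 (chromosome 17, 39461511 to 39564907, plus strand) had 4.95 and 4.0 TPM in Flag-IP and 1.08 and 1.27 TPM in input. CDK13 (chromosome 7, 39949646 to 40099580, plus strand) had 4.08 and 3.56 TPM in Flag-IP and 1.34 and 1.58 TPM in input. CDK13 thus had 0.824 and 0.890 times the TPM of CDK12 in Flag-IP, but 1.24 times in each input (difference -0.54 in log2, SD 0.06). On the median-ratio scale CDK12 was 0.46 ± 0.10 higher (limma adjusted p = 0.0133) and CDK13 was at 0.09 ± 0.10 (adjusted p = 0.509); as deposited they stood at 1.33 ± 0.21 and 0.97 ± 0.21. The CDK12 call was lost without Flag-IP 1, Flag-IP 3 or input 1 (limma adjusted p = 0.0502, 0.0539 and 0.0529).

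**Figure D4:**
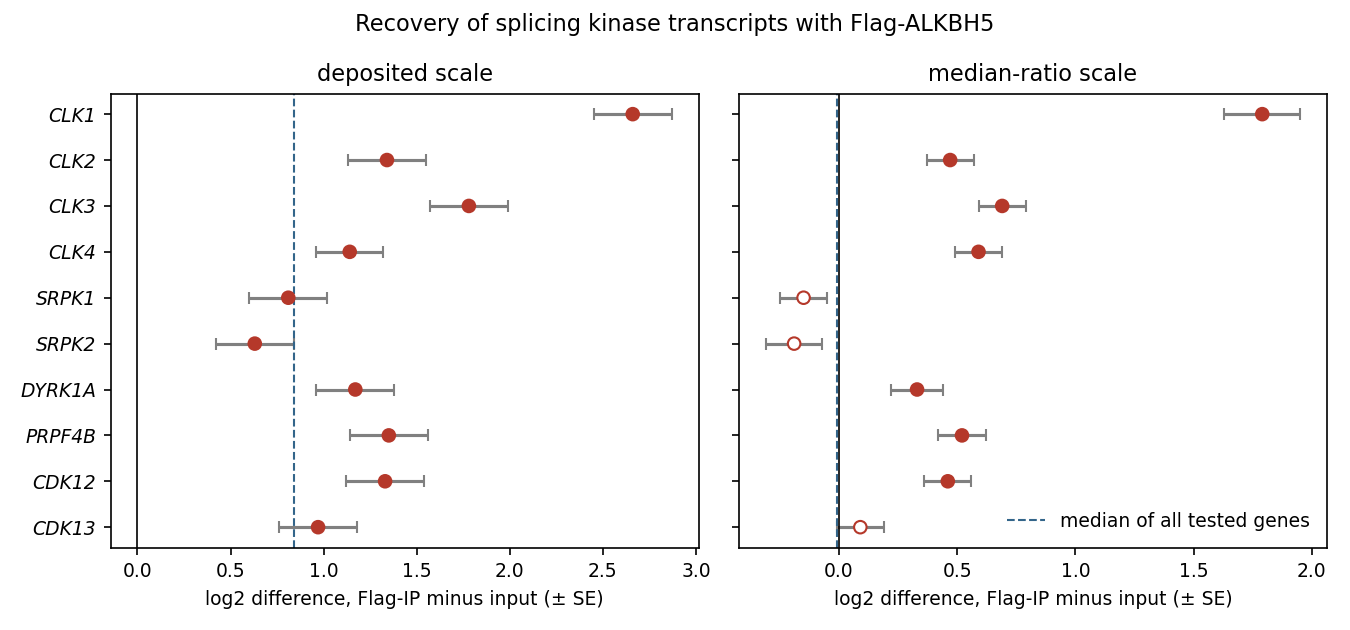
Log2 difference, Flag-IP minus input, of each kinase (points, ± SE from limma) as deposited (left) and on the median-ratio scale (right); filled points passed at an adjusted p below 0.05 and the dashed line is the median of all tested genes (0.84 and -0.01). CLK1 lies farthest to the right on both scales, at 2.66 and 1.79, and SRPK1 and SRPK2 lie left of the dashed line.

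As deposited, the prior degrees of freedom of limma were infinite, which gives genes of equal level the same error, so those p-values may be too small. The median-ratio scale had 4.02 prior and 2 residual degrees of freedom.

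Transcript length varied widely among the kinases and went with recovery across all genes. Over 5967 tested protein-coding genes the median-ratio difference had a Spearman's rho of 0.481 with the length of the transcript that has the longest coding sequence, as a description across genes that share the same 4 libraries. These transcripts were 2026 bases long for CLK1, 2166 for CLK2, 2621 for CLK3 and 2568 for CLK4, all below the median of 2910 bases. The other 6 kinases were longer, between 3650 (SRPK2) and 10135 bases (CDK13), with CDK12 at 8336 and DYRK1A at 6607. With this trend removed on the median-ratio scale, CLK3 and CLK2 were higher by 0.68 and 0.54 (limma adjusted p = 7.89e-04 and 0.00432). CLK1 and CLK4, whose input means kept them out of the test but for Flag-IP, stood at 1.89 and 0.59 (limma adjusted p = 1.48e-05 and 8.35e-04). PRPF4B (0.32, limma adjusted p = 0.0509), CDK12 (0.05, adjusted p = 0.750) and DYRK1A (0.00, adjusted p = 0.985) no longer passed. CDK13 (-0.41, limma adjusted p = 0.0171) and SRPK1 (-0.33, adjusted p = 0.0441) passed as lower. In that fit 19.6% of genes were higher and 22.2% lower. The results depended on which transcript stands for the gene. Planned was the longest annotated coding transcript, which for CLK3 is an incomplete model of 10498 bases and 3 exons. With that length CLK3 was at 0.22 (limma adjusted p = 0.126). CLK1, CLK2, CLK4 and PRPF4B (0.35, limma adjusted p = 0.0349) passed as higher. DYRK1A, higher before, then passed as lower (-0.38, limma adjusted p = 0.0207). So did CDK13 (-0.37, limma adjusted p = 0.028) and SRPK1 (-0.33, adjusted p = 0.0461). With the planned length 19.8% of genes were higher and 22.5% lower. With the median length of the coding transcripts of each gene, the 4 CLKs were the only kinases of the 10 that passed, with 21.6% of genes higher and 23.2% lower. On the deposited scale fewer CLK calls were left. CLK4 passed with none of the 3 lengths (0.27 to 0.29, limma adjusted p from 0.221 to 0.275). CLK2 did not pass with the median transcript (0.44, limma adjusted p = 0.0968), and CLK3 did not with the longest (0.49, adjusted p = 0.0751).

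**Figure D5:**
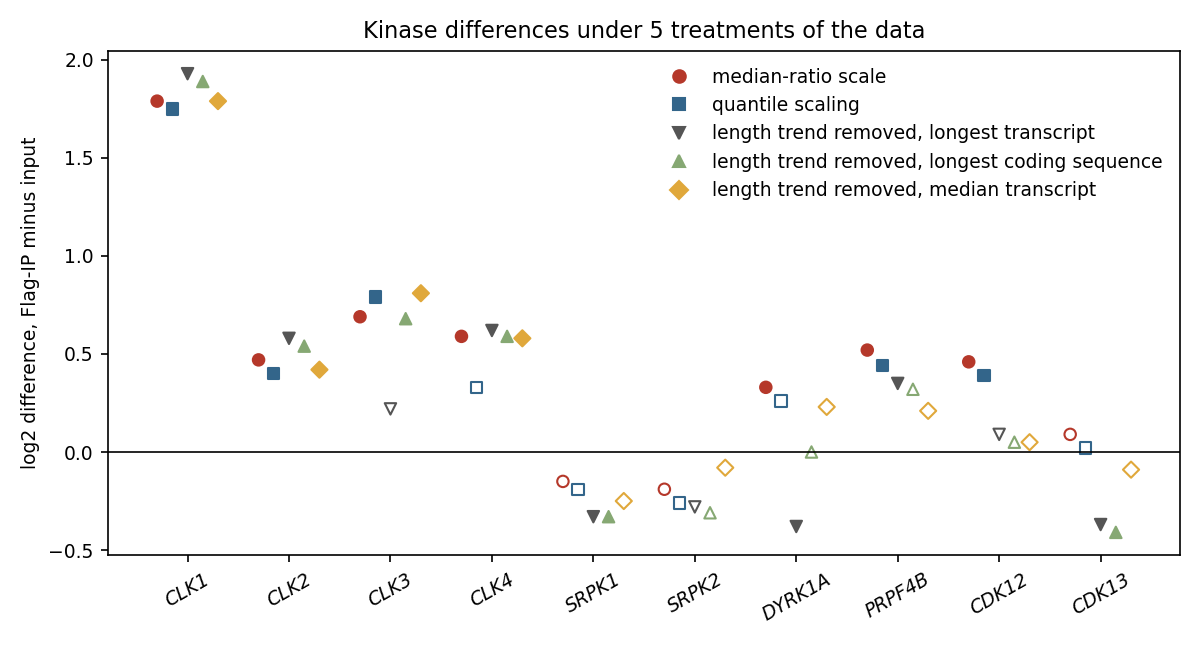
Log2 difference, Flag-IP minus input, of each kinase on the median-ratio scale, with quantile scaling, and with the length trend removed by 3 definitions of transcript length; filled symbols passed limma at an adjusted p below 0.05. CLK1 stays between 1.75 and 1.93. Once length is taken out CDK12 and DYRK1A move to 0.23 or below, and CDK13, at 0.09 before, turns negative. CLK3 moves to 0.22 by the longest transcript and PRPF4B to 0.21 by the median transcript.

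Annotated intron retention and the GGACT motif are features of the annotation and sequence, described here for the 10 kinases. GENCODE 29 lists 8 retained-intron transcripts for CLK1, 8 for CLK3 and 7 for CLK4, and 4.19% of tested protein-coding genes have more than 8. CLK2 has none, PRPF4B 1, SRPK2 2, CDK12 3, SRPK1 and DYRK1A 4 each and CDK13 6; in all 9 of the 10 kinases have at least 1, as do 67.4% of tested genes. The median difference on the median-ratio scale was -0.11 over the 1946 tested genes with no such transcript. It lay between -0.02 and 0.07 over genes with 1 to 4. Over genes with 5, 6 and 7 it was 0.17, 0.10 and 0.13. It was 0.13 over the 121 genes with 8, 0.34 over the 92 genes with 9 and 0.32 over the 158 genes with more. Whether intron retention or transcript length has a part in this was not tested.

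GGACT was searched on the sense strand of the transcript with the longest coding sequence, since the other strand is not part of the RNA. It occurred 2 times in CLK1, 5 in CLK2, 2 in CLK3 and 1 in CLK4. Per kb this was 0.987 for CLK1, 2.31 for CLK2, 0.763 for CLK3 and 0.389 for CLK4, and between 0.453 (PRPF4B) and 1.18 (CDK13) for the other 6 kinases, against a median of 0.960 over tested protein-coding genes, 90.2% of which hold the motif. The density of CLK1 was near the median, and that of CLK4 was below that of 84.9% of genes. Whether motif density is related to the difference between Flag-IP and input was not tested. The coding sites of CLK1 and CLK4 are shown because they are the same site in the paralogous genes, differing at 1 of 25 bases; capitals mark the motif.
CLK1: tgaactattgGGACTtagtacttac
CLK4: tgaactactgGGACTtagtacttac
These lie at chr2:200857803-200857827 and chr5:178613558-178613582, both on the minus strand of GRCh38. No m6A measurement is analysed here, and a match is a description of the letters, not of a methylated base.

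Among 5957 tested protein-coding genes outside the 10, those most like CLK1 over the 4 libraries, by Euclidean distance of log2(TPM + 1), were NPIPB5, GIGYF1, ASH1L, KEL and ANKRD13D, at distances from 0.255 to 0.332. NPIPB5, of a family with near-identical copies and so of uncertain level, had 12.48 and 9.14 TPM in Flag-IP and 0.39 and 1.24 TPM in input. GIGYF1, a translational repressor, had 12.01 and 10.24 TPM in Flag-IP and 0.69 and 0.95 TPM in input. ASH1L, a histone methyltransferase, had 10.66 and 7.58 TPM in Flag-IP, against 0.79 and 1.01 TPM in input. KEL, the Kell blood group protein, was at 10.88 and 8.16 TPM in Flag-IP and at 0.66 and 0.69 TPM in input. ANKRD13D, a ubiquitin-binding membrane protein, was at 9.99 and 9.15 TPM in Flag-IP and at 0.46 and 1.00 TPM in input.

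The calls of SR proteins, which SRPKs and CLKs phosphorylate, were mixed on the median-ratio scale. Of 14 listed (SRSF1 to SRSF12, TRA2A and TRA2B) 11 were tested, and 4 were higher (SRSF5, SRSF6, SRSF7 and TRA2A), 1 lower (SRSF4) and 6 did not pass, with a median of 0.12, where 22.3% of all tested genes were higher and 18.6% lower. As deposited all 11 were higher, as were 86.6% of all tested genes. SRSF5 had 10.09 and 6.88 TPM in Flag-IP and 1.26 and 1.5 TPM in input (1.03 ± 0.11 on the median-ratio scale, limma adjusted p = 0.00190). SRSF4 had 4.97 and 5.07 TPM in Flag-IP and 2.71 and 3.29 TPM in input (-0.41 ± 0.12, limma adjusted p = 0.0416). The most abundant, SRSF3, had 8.58 and 6.11 TPM in Flag-IP and 2.40 and 3.76 TPM in input and lay at 0.00 ± 0.15.

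Of 7 listed cyclin partners 4 were tested. CCNL2 and CCNL1, the cyclins L that pair with CDK11, were higher on the median-ratio scale, as were 22.3% of all tested genes. CCNK and CCNH did not pass. The median of the 4 was 0.48, against -0.01 for all tested genes. CCNL2 and CCNL1 both had input means below 1 TPM and were tested only through their Flag-IP values, so their count says nothing of the list. As deposited all 4 were higher, beside 86.6% of tested genes. CCNL2 had 4.28 and 4.0 TPM in Flag-IP and 0.36 and 0.60 TPM in input (1.09 ± 0.12, limma adjusted p = 0.00193). CCNK, the cyclin of CDK12 and CDK13, had 3.84 and 2.31 TPM in Flag-IP and 1.11 and 1.62 TPM in input (-0.07 ± 0.14, limma adjusted p = 0.702). Of 15 further kinases of the DYRK, HIPK, SRPK and CDK families 7 were tested, 2 were higher and none lower on the median-ratio scale, a share near the 22.3% of all tested genes, with a median of 0.11. As deposited all 7 were higher, beside 86.6% of tested genes. The 2 were CDK9, the kinase of the elongation factor P-TEFb (3.33 and 2.95 TPM in Flag-IP, 0.86 and 0.78 TPM in input; 0.41 ± 0.11, limma adjusted p = 0.0329), and CDK11B (5.11 and 4.18 TPM in Flag-IP, 1.31 and 1.52 TPM in input; 0.32 ± 0.10, adjusted p = 0.0424). CDK9 had an input mean below 1 TPM and was tested only through its Flag-IP values. CDK11B has the near-identical neighbour CDK11A, so its level is uncertain. CDK7, the kinase of transcription factor TFIIH, had the smallest difference of the list (-0.31 ± 0.16, limma adjusted p = 0.161).

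Of 8 phosphatases and regulators of SR protein phosphorylation, all tested, 1 was higher and 2 were lower on the median-ratio scale, with a median of -0.08, where 22.3% of all tested genes were higher and 18.6% lower. As deposited 7 of 8 were higher, a share near the 86.6% of all tested genes. TNPO3, the import receptor of phosphorylated SR proteins, was the higher one, with 6.97 and 5.22 TPM in Flag-IP and 1.51 and 1.82 TPM in input (0.45 ± 0.10, limma adjusted p = 0.0156). The lower ones were catalytic subunits of protein phosphatase 1. PPP1CA had 11.27 and 10.56 TPM in Flag-IP and 6.27 and 7.28 TPM in input (-0.51 ± 0.11, limma adjusted p = 0.0141). PPP1CC had 11.09 and 6.25 TPM in Flag-IP and 4.81 and 6.16 TPM in input (-0.56 ± 0.16, limma adjusted p = 0.0374), with Flag-IP 3 close to input 3.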

How the data were processed

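The submitters' processing notes name STAR, RSEM and GRCh38; neither versions nor an annotation are given there. What the authors deposited is a table of TPM by gene symbol for the 4 libraries, with 2 decimals and library totals of 1000000 apart from rounding. From it log2(TPM + 1) was computed for genes whose mean reached 1 TPM, as deposited and after median-ratio scaling. Flag-IP was compared with input by limma 3.58.1 (R 4.3.3; eBayes with a mean-variance trend; two-sided), with Benjamini-Hochberg adjustment over all tested genes and a threshold of 0.05. The test was checked on simulated data, built from genes with an input mean above 1 TPM and without a shift common to most genes. GENCODE 29 supplied positions, transcripts and lengths through gene names, for 23793 symbols and not for 3037. A loess fit of span 0.5 over protein-coding genes gave the length trend. The members, lists and tests were chosen with earlier results of these data known. Named were all 10 kinases, ALKBH5, from each list the genes with the largest and smallest difference and the highest level, and the 5 genes nearest to CLK1; SRSF6, SRSF7, TRA2A, CCNL1 and CCNH were named to complete counts, CDK11A, CLK2P1, EDC3 and KMT2E as copies or overlapping genes, and marker genes as a check of the cells. Alternatives were other scalings, filters and pseudocounts, no trend, a replicate block, a threshold of 0.1, removal of the length trend and each library left out. Other length definitions, a crossed block and ratios without 1 library were added after seeing the data.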

Additional observations from a re-analysis of the deposited data

How the results depend on the processing

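On the median-ratio scale CLK1 lay between 1.62 and 2.42 under the 16 alternatives tried; as it was tested only through its Flag-IP values, its passing in them is no support. With a filter at 5 TPM CLK1 and CLK3 alone were abundant enough to be tested. The 7 higher kinases then became these 2, where 25.5% of 1539 genes were higher. Fewer than 7 were higher whenever 1 library was left out. With the length trend removed 4 were higher and 3 lower by the longest transcript, 4 and 2 by the longest coding sequence, and 4 and 0 by the median transcript. The last 2 lengths, and the crossed block and ratios without 1 library given below, were chosen after seeing the data. As deposited the 10 higher kinases became 5 with quantile scaling, where 19.2% of genes were higher. With a filter at 5 TPM they became 2, the only ones tested, where 82.7% of genes were higher. By those lengths they became 2, 3 and 2, where 11.3%, 11.2% and 12.9% of genes were higher. The length fit on this scale also takes out the shift common to all genes. Some values on the deposited scale then turned negative, and none of them passed as lower. SRPK1 was at -0.19 with quantile scaling and at -0.21, -0.21 and -0.14 by the lengths. SRPK2 was at -0.26 with quantile scaling, at -0.30, -0.33 and -0.13 by the lengths, and at -0.05 with structural RNAs left out. DYRK1A was at -0.38 by the longest transcript, and CDK13 at -0.31, -0.35 and -0.04 by the lengths. By the lengths a negative value lies below the length trend, not below input itself. On the median-ratio scale DYRK1A (-0.38 by the longest transcript) and CDK13 (-0.37, -0.41 and -0.09) turned. The cause was not tested.

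Over all genes tested as deposited, 5616 were higher and 48 lower; with quantile scaling these were 1243 and 1219, with structural RNAs left out 2206 and 711, with a filter at 5 TPM 1272 and 25, and by the 3 lengths 673 and 655, 666 and 638, and 769 and 710. On the median-ratio scale the 1444 higher and 1207 lower became 392 and 355 with a filter at 5 TPM, and 897 to 1225 and 567 to 916 when 1 library was left out.

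The difference of the within-library log2 ratio moved with 0.1 TPM added for CLK1/CLK4 (1.27) and CLK4/CLK2 (0.45), and with 1 TPM added for CLK1/CLK4 (1.52), CLK1/CLK2 (1.31), CLK1/CLK3 (0.88), CLK4/CLK2 (-0.21), CLK2/CLK3 (-0.44) and CDK13/CDK12 (-0.36). Without 1 library SRPK2/SRPK1 lay between -0.19 and 0.00.

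The replicate numbers are not said to pair the libraries, and deviations of same-numbered libraries had a correlation of -0.168 over genes. With the number as a replicate block all 10 kinases were higher as deposited and 6 on the median-ratio scale (DYRK1A at 0.33, limma adjusted p = 0.0645), and 4789 and 1286 genes in all; with the crossed block the kinases numbered 10 and 6, and the genes 5908 and 1409. Depth is unknown, so no detection limit can be given for low kinases such as CLK4.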
